A study of Gossypium barbadense with 4 samples.

Results

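The ovule-preferred probe sets are 214 of the 24029 probe sets, other than controls, on the cotton array, or 0.891%. They were chosen by their signals on all 4 arrays. After signals under 50 were set to 50, the lower of the ovule signals of both genotypes had to be at least 200 and at least 4 times the higher of the anther signals. The difference between ovules and anthers is therefore how they were picked and is given as a description only. The difference between the genotypes was not itself a criterion, but a limit on the lower ovule and the higher anther signal lets a probe set with a wide difference in either tissue enter less easily. The genotypes were Pima 57-4, a semigametic doubled haploid that arose naturally from Pima S-1, and Pima S-1 itself, a nonsemigametic cultivar of Gossypium barbadense. Anthers and ovules were collected at 0 days post-anthesis (DPA) from field plots of both, each genotype being a single line. RNA of 3 biological replicates of 10 flowers each was pooled for each tissue and genotype and hybridized to 1 Affymetrix Cotton Genome Array, which leaves no replicate error, and how precisely a difference is known is limited by the 4 arrays. In semigamy the sperm nucleus enters the egg cell but does not fuse with the egg nucleus.

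A cotton ovule on the day of flowering consists of the integuments, the nucellus and the embryo sac that holds the egg cell, and fibre cells begin to emerge from the outer epidermis of the integument at about this time. The anther holds mature pollen and the walls that release it. The maternal layers make up nearly all of the tissue of an ovule and the embryo sac very little. In a bulk sample fewer cells of a type and less RNA per cell cannot be told apart.

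The signal is a linear intensity computed by the authors' MAS5 software, with the mean over all probe sets, the extremes left out, equal to 250.0 on each array. The control transcripts differed between the genotypes. The ratio of the 3' to the 5' signal of 3 cotton control transcripts, a measure of RNA integrity, was higher in 57-4 in 6 of 6 comparisons. It ranged from 14.5 to 21.1 in 57-4 ovules against 4.18 to 11.8 in Pima S-1 ovules, and from 11.7 to 17.4 in 57-4 anthers against 5.64 to 9.20 in Pima S-1 anthers. Over 9 hybridization controls 57-4 stood above Pima S-1 by a median log2 ratio of 0.40 in ovules and 0.47 in anthers. The published ovule list holds 30 members, and for 30 of 30 the columns it heads as 57-4 and Pima S-1 match the deposited signals of the opposite genotype within 0.05. In the same check of the 13 members on the published anther list, the signals read matched the deposited ones in neither order for any of them. That check therefore left the anther labels unsettled. The deposited labels were used, and the sign of each ovule and anther ratio rests on them. The tissue labels could not be checked against defining markers. No described probe set carried a word for pollen, tapetum or another anther part, and of 8 that carried an ovule or seed word 2 reached 200 on both ovule arrays and 0 were ovule-preferred.

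Over the 214 probe sets the signal ranged from 207.2 to 15104.1 in 57-4 ovules, with a median of 862.4, and from 209 to 15642 in Pima S-1 ovules, with a median of 868.05. In anthers the same probe sets ranged from 2.9 to 2121.6 in 57-4, with a median of 80.55, and from 2.1 to 1385.9 in Pima S-1, with a median of 58.6. Every probe set was higher in both ovule arrays than in both anther arrays, as the choice requires. For 51 of them both anther signals were under 50, so that only a lower bound of the ratio between tissues is given. For the 163 with an anther signal of at least 50, the lower ovule signal was 4.01 to 127.9 times the higher anther signal, with a median of 6.08 and quartiles of 4.79 and 9.26. The ratio, with anther signals under 50 set to 50, reached 8 in 80 probe sets, 16 in 32 and 32 in 13. The members just inside the limit on the ratio stood at 4.01, 4.02 and 4.06, and the probe sets just outside at 3.99, 3.97 and 3.94. At the limit on the signal the lowest members had ovule signals of 207.2, 209 and 212.8, and the nearest probe sets outside had 199.7, 199.3 and 199. With anther signals set to at least 50, the ratio of 4 already requires an ovule signal of 200. This limit is therefore not separate from that on the ratio.

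**Figure D1:**
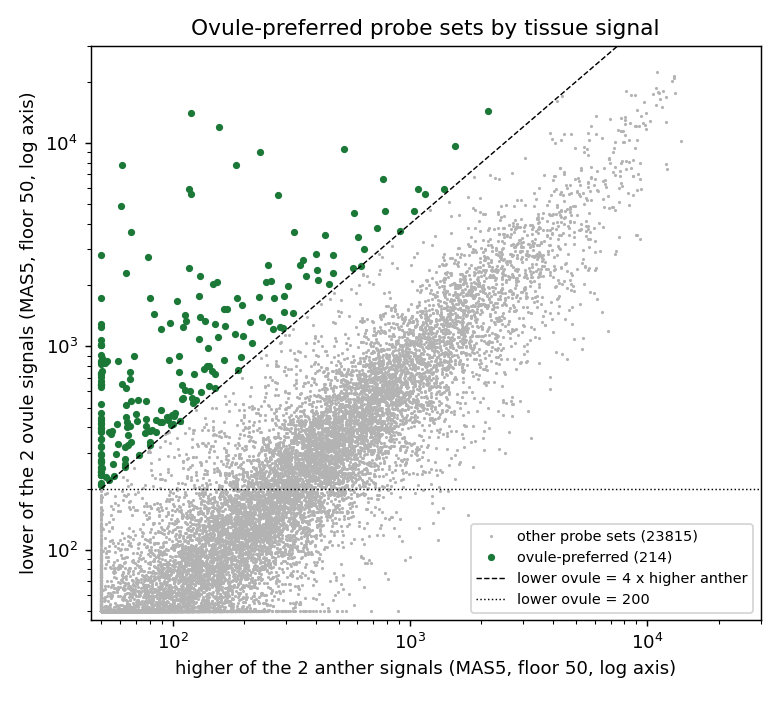
Each point is a probe set, with the higher of the anther signals on the x axis and the lower of the ovule signals on the y axis, both as MAS5 signals with values under 50 set to 50 and both on log axes. The 214 green points are ovule-preferred, above the dashed line where the ovule signal is 4 times the anther signal and above the dotted line at 200, and the 23815 grey points are the other probe sets.

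Products are known here only for genes on the study's lists of differing genes, and 31 of the 214 members have an informative product there. A further 12 are listed without one and 171 are on neither list. The described members are thus those for which a difference between the genotypes had been called, and of the 43 listed members 34 were lower in 57-4 ovules and 9 higher, with a median log2 ratio of -0.40. Of the 30 on the ovule list 29 were lower, and of the 13 on the anther list 5 were lower and 8 higher. The 171 unlisted members were lower in 79 and higher in 92, with a median of 0.03. The directions of the named genes below are therefore no description of the whole set.

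Sesquiterpene synthesis held the third widest ratio between the tissues among members with a measured anther signal. The probe set for (+)-delta-cadinene synthase XC14 (U23205), the enzyme that commits farnesyl diphosphate to gossypol and related defence terpenoids of cotton, had signals of 4904.1 and 4946.3 in the ovules of 57-4 and Pima S-1, and of 60.2 and 14.5 in their anthers. The ovule signals lay 81.5 times or more above the anthers and differed between the genotypes by a log2 ratio of -0.01. Farnesyl pyrophosphate synthase (AI054617), which makes the substrate of that enzyme, had 440.5 and 828.2 in the ovules of 57-4 and Pima S-1, against 16.5 and 77.2 in the anthers, so its anther signal was also the lower one in 57-4. Its ovule log2 ratio, 57-4 over Pima S-1, was -0.91. Of 15 described probe sets of terpenoid and sterol synthesis these 2 (13.3%) were ovule-preferred, beside 31 (2.75%) of all 1129 described probe sets.

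Among other enzymes and binding proteins was alcohol dehydrogenase A (BE054959), which converts acetaldehyde and ethanol into each other. It had 15104.1 and 14413.6 in the ovules of 57-4 and Pima S-1, and 2121.6 and 758 in their anthers. A metallothionein-like probe set (AY857933), for a small cysteine-rich protein that binds metal ions, had 10801.3 and 9664.1 in the ovules of 57-4 and Pima S-1 and 1550.4 and 227.7 in the anthers. The second metallothionein-like probe set (DN817800) had 2544.9 and 2072.1 in ovules and 154 and 27.6 in anthers. In ovules these 3 differed little between the genotypes, with log2 ratios of 0.07, 0.16 and 0.30, while in anthers the 57-4 array was the brighter for each. A 2-oxoglutarate-dependent dioxygenase (DN827346), one of a large family of iron enzymes that oxidize small molecules, had 9306.6 and 7761.7 in ovules and 184.1 and 52.3 in anthers, so the lower ovule signal was 42.2 times the higher anther signal. A major latex-like protein (CO496692), of a family related to the PR-10 defence proteins, had 6674.6 and 8232.2 in ovules and 765.6 and 332.4 in anthers. ACC oxidase 1 (DQ116442), which catalyses the last step of ethylene synthesis, had 3796.8 and 3540.8 in ovules and 439.7 and 289.9 in anthers. The CPRD2 protein (CA993642) had 969.7 and 846.6 in ovules and 58.7 and 28.3 in anthers. For these 4 the ovule log2 ratios were 0.26, -0.30, 0.10 and 0.20.

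Of 35 described probe sets in the group of redox and metal-binding words, 4 (11.4%) were ovule-preferred, beside 2.75% of all described probe sets. The 4 had ovule log2 ratios from -0.44 to 0.30 and a median of -0.12. Apart from the metallothioneins they were the 2 probe sets named cytochrome P450 DDWF1. One (DT465682) had 2210.7 and 2995.7 in the ovules of 57-4 and Pima S-1, and 130.5 and 106.2 in the anthers. The other (DN781299) had 2026.6 and 2672.5 in ovules and 456.6 and 256 in anthers. Its annotation conflicts, since another title of the same probe set names a beta tubulin, and its place in the group is uncertain.

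Genes of lipid metabolism and transport gave 3 ovule-preferred probe sets of 21 described (14.3%), beside 2.75% of all described probe sets. The median ovule log2 ratio of the 3 was 0.08. Beta-ketoacyl-CoA synthase (DR461620), which starts each round of very-long-chain fatty acid elongation, had 2653.3 and 2216.1 in the ovules of 57-4 and Pima S-1 and 363.9 and 177.1 in the anthers. A probable non-specific lipid-transfer protein (DT049951), of a family of secreted proteins that bind lipids, had 2582.1 and 2439.2 in ovules and 572 and 163.8 in anthers. Acyl carrier protein (DW240158), which holds the growing chain in fatty acid synthesis, had 901.4 and 1667.9 in ovules and 68.4 and 43.1 in anthers. The first of these had an ovule log2 ratio of 0.26 and the second 0.08, whereas acyl carrier protein stood at -0.89.

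The photosynthesis words described 18 probe sets, of which 13 reached 200 on both ovule arrays. Ovule-preferred were 4 (22.2%), beside 2.75% of all 1129 described probe sets. Among those of at least 200 on both ovule arrays the shares were 30.8% and 4.81%. All 4 were lower in 57-4 ovules, with log2 ratios from -0.93 to -0.20 and a median of -0.51. Oxygen-evolving enhancer protein 1 (CO081952) and protein 2 (CO093680) belong to the complex of photosystem II that splits water. The first had 1080.9 and 1493.5 in the ovules of 57-4 and Pima S-1, and 122.8 and 128.5 in the anthers. The second had 732.6 and 1394.7 in ovules and 122.8 and 82.3 in anthers. The photosystem II 5 kDa protein (DN780906) had 630.5 and 921.7 in ovules and 41.8 and 48.2 in anthers. A Rubisco small chain (CA994331), part of the enzyme that fixes carbon dioxide, had 2375.3 and 2730 in ovules and 406.1 and 74.8 in anthers. A further probe set, named for photosystem II protein PSBY by similarity only (CD485628), had 732.2 and 1004.2 in ovules and 34.9 and 26.7 in anthers, and its ovule log2 ratio was -0.46. The median log2 ratio of ovules to anthers was 1.18 over all 18 described photosynthesis probe sets and 0.20 over the 14 that were not members.

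Of 90 probe sets matched by the words for transcription regulators, 43 reached 200 on both ovule arrays and 2 (2.22%) were ovule-preferred, beside 31 (2.75%) of all 1129 described probe sets. WRKY transcription factor 2 (DT463913) had 3013.3 and 6225.4 in the ovules of 57-4 and Pima S-1, and 406.4 and 639.7 in their anthers. It was lower in 57-4 in both tissues, by a log2 ratio of -1.05 in ovules and -0.65 in anthers. A ZF-HD homeobox protein (CO090451) had 556.7 and 778.2 in ovules and 120.5 and 91.1 in anthers, and an ethylene-responsive element binding protein, ERF2 (DT466387), had 409.5 and 671.7 in ovules and 88.1 and 98.3 in anthers. Their ovule log2 ratios were -0.48 and -0.71. Another probe set of the ERF2 cluster with the same product name was not ovule-preferred. It had 668.7 and 894.1 in the ovules of 57-4 and Pima S-1, and 392.5 and 287.2 in anthers. A probe set named for subunit 3 of TFIID (DW499242), a general factor of RNA polymerase II, had 379.4 and 419.4 in ovules and 84.8 and 10.9 in anthers, but a second title names an allergen-related protein instead. The 2 counted regulators were the WRKY and ZF-HD probe sets, since the words for transcription regulators did not match ERF2 or TFIID. Hormone words matched 40 probe sets, of which 2 (5%), ACC oxidase 1 and ERF2, were ovule-preferred, beside 2.75% of all described probe sets. Translation words matched 62, of which only 2 (3.23%), the TFIID probe set and the plastid ribosomal heading given next, were ovule-preferred. TFIID is a transcription factor and the entry of the other reads only HyPRP1, so neither is shown to be a gene of translation.

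Further members were proteins of the cell surface, the vacuole and defence, and a sorbitol related enzyme. LysM domain-containing GPI-anchored protein 2 (DT468380) belongs to a family of membrane-anchored proteins with a domain that binds chitin-like sugars. It had 1325 and 541.2 in the ovules of 57-4 and Pima S-1, and 77.1 and 58.4 in anthers. With an ovule log2 ratio of 1.29 it was the only described member at least 2-fold higher in 57-4 ovules. Another probe set of its cluster, without a product, had 374.3 and 188.6 in ovules, a log2 ratio of 0.99. A probe set headed as plastid ribosomal protein (DT047683), whose own entry reads only HyPRP1, had 5569.2 and 7330.7 in ovules and 278.7 and 219.7 in anthers. Delta-tonoplast intrinsic protein (U62778), a water channel of the vacuole membrane, had 982.7 and 1318.6 in ovules and 140.6 and 109.5 in anthers. The sorbitol related enzyme (CO090737) had 1337 and 2595.5 in ovules and 137.3 and 86.3 in anthers, a log2 ratio of -0.96 in ovules. Another probe set of its cluster, without a product, showed neither. It had 117.7 and 111.8 in ovules and 145.2 and 131.4 in anthers, an ovule log2 ratio of 0.07. Of 40 described cell wall probe sets 2 (5%) were ovule-preferred, both named by similarity only, beside 2.75% of all described probe sets. They were an inhibitor of fructosidase, the enzyme that splits sucrose (DN779868), with 319.3 and 593.2 in ovules and 16.8 and 6.8 in anthers, and a pectinesterase inhibitor (DR460697), with 640.7 and 1012.8 in ovules and 142.5 and 95.1 in anthers. Their ovule log2 ratios were -0.89 and -0.66. A PR-10 probe set (CD485617) and a ribonuclease-like PR-10 (AF416652), both of a defence protein family, had 1009.8 and 1376.1, and 1014.5 and 1310.8, in the ovules of 57-4 and Pima S-1. All 4 anther signals of this pair were under 50, from 5.8 to 27.6.

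The groups rest on words in the product. None of the probe sets matched by the words for cell division and chromatin (20), phenylpropanoid and flavonoid synthesis (12), fibre (16), kinases and phosphatases (78), transport (48), proteolysis (68) or cytoskeleton (21) was ovule-preferred, beside 2.75% of all described probe sets. The transport words did not match the tonoplast water channel U62778, which is a member. Many of them were expressed in ovules, such as 35 of the 68 for proteolysis and 29 of the 78 kinases and phosphatases at 200 or more on both arrays, but without a 4-fold gap to the anthers.

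**Figure D2:**
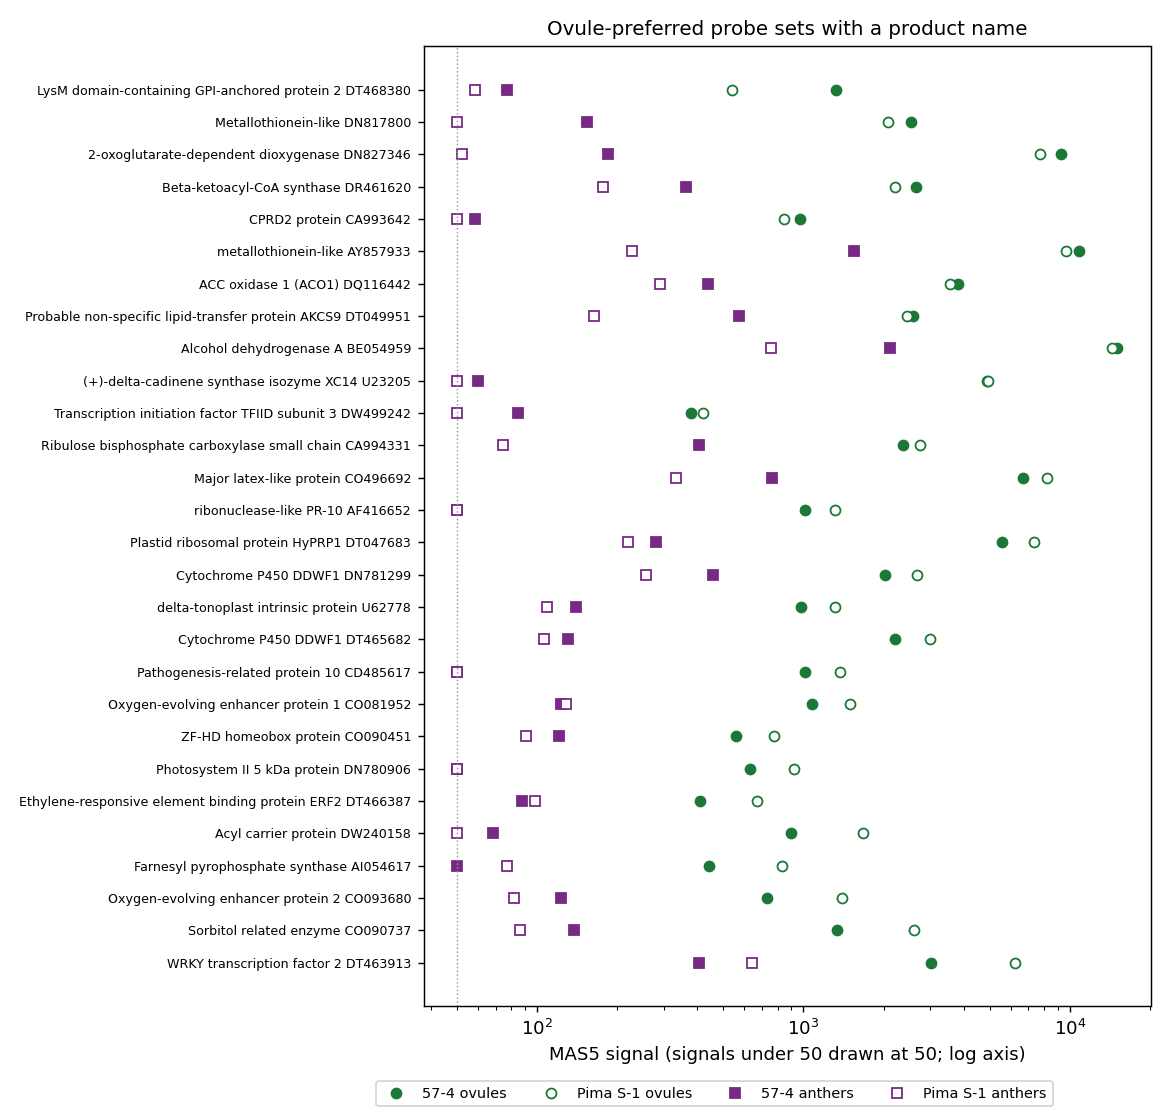
The 28 ovule-preferred probe sets with a product name, 1 per row with their GenBank entry, are ordered by their ovule log2 ratio (57-4 over Pima S-1), with the MAS5 signal on a log x axis and signals under 50 drawn at 50 (dotted line). Filled symbols are 57-4, open symbols Pima S-1, circles ovules and squares anthers, 1 array each. The circles of the first and last rows (WRKY transcription factor 2 and LysM domain-containing GPI-anchored protein 2) lie more than 2-fold apart and those of all other rows less, and the filled square lies right of the open one in most rows.

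The question of how 57-4 and Pima S-1 ovules differed over the ovule-preferred genes was addressed with the log2 ratio of the ovule signals. Most members were close to equal. The median log2 ratio was -0.02, the quartiles were -0.28 and 0.23, and 180 of 214 (84.1%) lay within 1.5-fold. A difference of 2-fold or more was seen in 10 members, of which 5 were higher and 5 lower in 57-4, or 2.34% each. Among the 14707 probe sets with an ovule signal of at least 50 the shares were 4.46% higher and 4.14% lower. Brightness is a closer match among the 6536 probe sets of at least 200 on both ovule arrays, and there 2.19% were higher and 3.15% lower. The 6322 of those that were not ovule-preferred had a median of -0.03, quartiles of -0.30 and 0.24, and 81.4% within 1.5-fold. The SD of the log2 ratio across probe sets was 0.46 over the members and 0.50 over these others. These shares of members are near those of the bright probe sets, but they depend on the rule. With the limits put on the geometric means of the ovule and of the anther signals, which do not hold back a difference between the genotypes in this way, 321 probe sets were chosen, all 214 members among them. Of these, 15 (4.67%) were higher and 20 (6.23%) lower in 57-4 ovules, beside 2.73% and 4.12% of the 7142 probe sets with a mean ovule signal of at least 200. After scaling on hybridization controls, which leaves 177 members, 1 was higher and 10 were lower, beside 0.768% higher and 9.81% lower among probe sets of at least 200 on both ovule arrays.

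**Figure D3:**
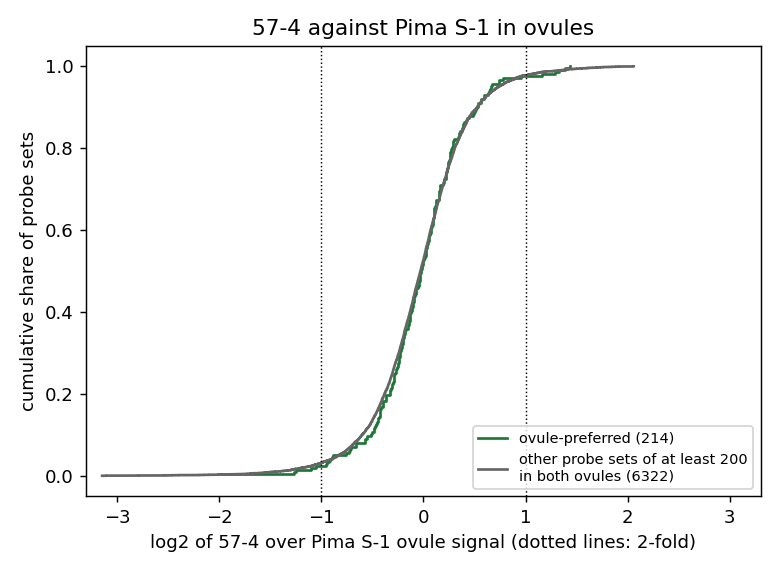
The cumulative share of probe sets (y axis) is drawn against the ovule log2 ratio, 57-4 over Pima S-1 (x axis), for the 214 ovule-preferred probe sets and for the 6322 others of at least 200 on both ovule arrays, with dotted lines at a 2-fold difference. The curves run together, with medians of -0.02 and -0.03.

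The members with at least a 2-fold difference in ovules were mostly without a product. The strongest decrease was in Ghi.1479.1.S1_at, with ovule signals of 387.5 for 57-4 and 1547.1 for Pima S-1, a log2 ratio of -2.00. Its anther signals of 81.9 and 67.2 were near each other. GhiAffx.6239.1.S1_at had 255.8 and 614 in ovules, a log2 ratio of -1.26, and 41.2 and 62.6 in anthers. The other 3 lower members, WRKY transcription factor 2 included, had log2 ratios from -1.25 to -1.05. The strongest increases were in Ghi.9227.1.A1_x_at, with 1037.5 and 384.7 in ovules and 55.5 and 22.8 in anthers, and in Ghi.102.1.S1_x_at, with 1041.4 and 398.3 in ovules and 21.4 and 17.6 in anthers. Their log2 ratios were 1.43 and 1.39, and the other 3 higher members, the LysM protein included, reached 1.16 to 1.32. Of these 10 members, 8 had an anther signal of at least 50 and 0 of them differed by 2-fold in anthers. Of all 163 members with such a signal 13.5% were higher and 0.613% lower in anthers, so 0 of 8 says little. A name ending in plain _at marks a probe set designed for a single transcript. This held for 4 of the 5 lower members and for 1 of the 5 higher members, and the part of cross-hybridization in these ratios was not tested.

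In anthers, where the same genes were weak, members were more often higher in 57-4 than other probe sets were. Of the 163 members with an anther signal of at least 50, 22 (13.5%) were at least 2-fold higher in 57-4 anthers and 1 (0.613%) was lower. Among all 15900 probe sets with such a signal 1.59% were higher and 2.71% lower. The median log2 ratio was 0.33 over the 163 members, with quartiles of -0.07 and 0.68, and 0.00 over all 15900, and 117 members (71.8%) were above 0. The 6322 probe sets bright in ovules but not ovule-preferred had 0.807% higher, 1.39% lower and a median of 0.01. Of the 14945 other probe sets that did not exceed the members' highest anther signal of 2121.6, 1.53% were higher and 2.80% lower. Brightness was matched more closely between 71.5 and 235.65, the quartiles of the members' higher anther signal. There 13 of 81 members (16.05%) were higher and 1 (1.23%) was lower, beside 3.13% and 4.70% of 5789 others. With the rule on mean signals 36 of 261 (13.8%) were higher and 6 (2.30%) lower. Of the 7082 probe sets measured in anthers with a mean ovule signal of at least 200, 1.09% were higher and 1.75% lower. Of the 108 members with both anther signals at 50 or above, 14 were higher and 1 was lower. The share of all probe sets under that filter was not computed. The study had called a genotype difference for the 13 members on its anther list, and 9 of these were higher. Of the 150 others 13 (8.67%) were higher and 1 lower, with a median of 0.25. Of the 15737 probe sets measured in anthers that were not members, listed ones included, 1.47% were higher and 2.73% lower. After scaling on hybridization controls, 13 of 130 members were higher and 2 lower, beside 0.483% and 11.3% of all probe sets measured in anthers.

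The largest anther difference was that of the metallothionein AY857933, with an anther signal of 1550.4 in 57-4 and 227.7 in Pima S-1, 6.81-fold. The probe set Ghi.1287.1.S1_at, without a product, had 325.2 and 17.9 in anthers, at least 6.50-fold, and 3631.9 and 3773.7 in ovules. The Rubisco small chain CA994331 was 5.43-fold higher in 57-4 anthers (406.1 against 74.8). Another probe set of the same cluster, also named Rubisco small chain (DN780767) but not ovule-preferred, had 1616.1 and 120.1 in the anthers of 57-4 and Pima S-1, and 1399 and 1515.3 in ovules. The dioxygenase DN827346 was 3.52-fold and the lipid-transfer protein DT049951 3.49-fold higher in 57-4 anthers. The metallothionein DN817800 was at least 3.08-fold, alcohol dehydrogenase A 2.80-fold, the major latex-like protein 2.30-fold and beta-ketoacyl-CoA synthase 2.05-fold higher. The 1 lower member was Ghi.9265.1.S1_at, without a product, with an anther signal of 79.9 in 57-4 and 164.4 in Pima S-1, 2.06-fold.

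The same 22 probe sets did not differ by 2-fold in ovules. Of all 214 members 2.34% were higher and 2.34% lower there, so 22 probe sets are too few to set them apart. The ovule log2 ratios of the 22 ranged from -0.56 to 0.78 with a median of 0.07. They came from 22 different clusters, 12 had names ending in plain _at, and for 8 the anther fold is a lower bound. Expressed as a share of the ovule signal of the same genotype and probe set, the anther signal of the 22 was 1.94% to 24.7% in 57-4, with a median of 12.5%, and 0.474% to 10.3% in Pima S-1, with a median of 3.66%. These shares come from the signals by which the 22 were counted and are a description only. The higher 3' to 5' ratios and the brighter hybridization controls of the 57-4 anther array go along with this difference, and their part in the result was not tested. Over all 214 members the ovule to anther ratio, with signals under 50 set to 50, was larger in Pima S-1 for 143 and in 57-4 for 71, with medians of 9.44 and 7.84. This uses the same signals as the counts above and is no separate result. For the 51 members with both anther signals under 50 it only restates the ovule ratio. The share among other probe sets was not computed.

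**Figure D4:**
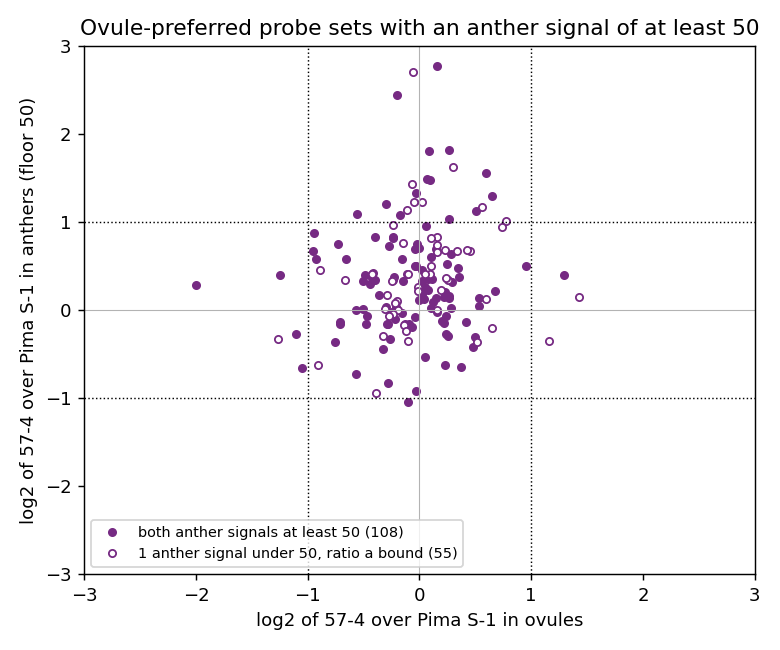
For the 163 ovule-preferred probe sets with an anther signal of at least 50, the anther log2 ratio, 57-4 over Pima S-1 (y axis, signals under 50 set to 50), is drawn against that in ovules (x axis), with dotted lines at 2-fold. Filled points (108) had both anther signals at 50 or above and open points (55) only 1, so that their anther ratio is a bound. The 22 points above the upper dotted line all lie between the vertical dotted lines, and 1 point lies below the lower one.

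The mirror image was also examined. Under the same rule with the tissues exchanged 34 probe sets were anther-preferred, and 33 of them had an ovule signal of at least 50. Their median log2 ratio of 57-4 to Pima S-1 in ovules was 0.20, with 27 above 0 and 0 beyond 2-fold in either direction. Over all 14707 probe sets with such an ovule signal the median was 0.06 and 55.6% were above 0. Of these 4.46% were 2-fold higher and 4.14% lower, so few of 33 would be looked for beyond 2-fold. A background matched in brightness was not computed.

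The names of the probe sets give the cotton species of the transcript they were designed on. Upland cotton, G. hirsutum, accounted for 180 of the 214 members (84.1%) and G. raimondii for 27 (12.6%), compared with 69.9% and 29.4% of all probe sets. Among the probe sets bright on both ovule arrays that were not members the shares were 89.5% and 9.68%. The shortage of G. raimondii designs was thus shared by other probe sets that are bright in ovules. G. arboreum contributed 4 of its 69 probe sets and G. barbadense, the species of the plants, 3 of its 36. A name ending in plain _at was found for 102 members (47.7%), compared with 53.0% of all probe sets and 37.8% of the bright others.

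The members fell into 205 clusters of the array design. For 155 of these the array held a single probe set, and for 50 it held several. In 9 clusters 2 probe sets were ovule-preferred, and such pairs may measure 1 gene. Their ovule log2 ratios differed between the paired probe sets by 0.06 to 1.36, with a median of 0.37. The widest gap was in the cluster of Ghi.9227.1.A1_x_at, whose partner had 344.9 and 327.4 in the ovules of 57-4 and Pima S-1, so that the increase above was seen by 1 of the pair. Of the 70 other probe sets in clusters with a member, 15 reached 200 on both ovule arrays, 5 of them at a ratio of at least 2 between the tissues, 18 were under 50 on all arrays, and 21 had a higher anther signal above the lower ovule signal.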

How the data were processed

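Anthers and ovules of 57-4 and Pima S-1 at 0 DPA were measured on 4 arrays, 1 per tissue and genotype. The deposited values are intensities, MAS5 signals made by the authors' Affymetrix software (version not given in the sources used here) and scaled to a common mean on each array. Of the 24132 probe sets in the table, 103 are controls and entered no count. Signals under 50 were set to 50, log2 ratios were taken with numpy 2.4.6 and pandas 2.3.3, and a difference was counted from 2-fold. A fold with 1 signal under 50 is written as "at least", and none is given with both under 50. With 1 array per group no test was run. The study's supplementary lists (1659 of the probe sets, 1129 with an informative product) were read for product names only, apart from the check of the ovule and anther signal headings. Their log ratios, change calls and p-values were not used. Probe sets were put into gene groups by words in the product. Members and word lists were chosen with earlier results of these data known.

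Genes were named by a rule: the 8 highest and 8 lowest ovule log2 ratios, the 8 largest ovule to anther ratios and the 8 brightest among members with a product, the 3 brightest of each group with 3 or more members, and 4 extreme members without one. Oxygen-evolving enhancer and lipid genes entered partly through the groups. The photosystem II 5 kDa protein, PSBY, DDWF1 DN781299, ZF-HD, TFIID, the PR-10 pair and the tonoplast protein were added after their values were seen. So were the single probe sets of the anther comparison and the other probe sets of named clusters. Alternatives were floors of 25 and 100 or none, quantile normalization, scaling on hybridization controls, centring, single-transcript probe sets, other limits in the rule, the rule on geometric means (chosen after seeing the data), exchanged ovule columns and a log2 threshold of 1.5. The counting was tested on simulated data. No reference sequence was matched to the probe sets.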

Additional observations from a re-analysis of the deposited data

How the results depend on the processing

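No paired analysis was possible because each group had 1 array. Alternatives for the anther results and the rule on mean signals were chosen after seeing the data. The 214 members became 102 with single-transcript probe sets alone, 490 at a ratio of 2 and 80 at a ratio of 8. A floor of 100 and a least ovule signal of 400 set the same limit on members, and each left 165. Members 2-fold higher and lower in 57-4 ovules, 5 and 5, became 2 and 2 with a floor of 100 or a least ovule signal of 400, 1 and 10 with scaling on the hybridization controls, 11 and 24 at a ratio of 2, 0 and 1 at a ratio of 8, 0 and 1 at a threshold of 1.5, and 15 and 20 with the rule on mean signals. With single-transcript probe sets 1 was higher and 4 were lower of 102. Of such probe sets at 200 or more on both ovule arrays, 2.49% were higher and 3.13% lower. At the threshold of 1.5 the shares of all probe sets that bright were 0.566% and 0.903%. The ovule median of -0.02 moved to -0.37 with scaling on the hybridization controls, which moved that of all probe sets of at least 200 on both ovule arrays to -0.42, and it was 0.01 with quantile normalization and 0.02 with the ovule columns exchanged. In anthers, 22 higher and 1 lower became 46 and 9 with a floor of 25, 9 and 0 with a floor of 100, 59 and 16 with no floor, 13 and 2 with scaling on the hybridization controls, 40 and 8 at a ratio of 2, 11 and 0 at a ratio of 8, 7 and 0 at a threshold of 1.5, 36 and 6 with the rule on mean signals, and 13 and 1 within the quartiles of anther signal, with 12 higher among single-transcript probe sets. The anther median of 0.33 became 0.22 with a floor of 100, 0.43 with no floor, 0.11 with scaling on the hybridization controls and 0.16 at a ratio of 2. Higher members outnumbered lower ones under each of these settings. Of all measured probe sets 6.54% were higher and 5.34% lower with a floor of 25, against 23.4% and 4.57% of members. With a floor of 100 the shares were 0.618% and 1.68% against 9.18% and 0, and with no floor 13.7% and 11.5% against 27.6% and 7.48%. At a threshold of 1.5 they were 0.226% and 0.478% against 4.29% and 0. Among single-transcript probe sets they were 1.86% and 2.31% against 15.6% and 1.30%. The scaling moved the anther median of all measured probe sets to -0.43, where 0.483% were higher and 11.3% lower, against 10.0% and 1.54% of members. Of the 27 named probe sets none with a 2-fold ovule ratio changed sign, but that scaling moved all 27 and changed the sign of 8, and quantile normalization moved 4 by more than 0.1 and changed the sign of 1. The scaling divides each array by 1 factor, so it lowered the ovule log2 ratio of all 27 by the same 0.42. Its changes of sign follow from that. Why the hybridization controls differed between the arrays was not tested, nor was the cause of the other shifts. Signals under 50 limit the anther ratios to bounds.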
